A study of Mus musculus with 20 samples.

Results

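The Eya, Six-class and Dach genes encode a module of developmental transcription regulators. The members described here were the 8 genes Eya1, Eya2, Eya3, Eya4, Six2, Six4, Six5 and Dach1, and they were read with every array probe annotated with one of these symbols, 22 of 45281 probes (8 of 19057 named genes). The genes were chosen by a rule that used measured values, because Eya1 had already been singled out for its higher level in sham DKO hearts. The sham genotype values of the members are therefore given as a description with no test.

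RNA of the cardiac ventricle was hybridized to Illumina bead chips with 1 array per mouse. There were 6 TAC DKO, 6 TAC CTL, 4 sham DKO and 4 sham CTL hearts. DKO mice carried homozygous floxed alleles of the DNA methyltransferase genes Dnmt3a and Dnmt3b and a Cre recombinase driven by the atrial myosin light chain promoter, which acts in cardiomyocytes from early heart development on, and CTL mice carried the same floxed alleles without Cre. All were male mice operated at 10 to 12 weeks of age by TAC, a transverse aortic constriction that loads the left ventricle with pressure, or by a sham procedure, and hearts were taken 4 weeks later, at 14 to 16 weeks. The tissue was a mixture of cell types, so fewer cells of a type and less RNA per cell cannot be told apart.

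Six-class proteins are homeodomain factors that bind DNA. Eya proteins do not bind DNA themselves but are recruited by Six-class proteins as coactivators, and they also carry a phosphatase activity. Dach proteins, relatives of the Ski oncoproteins, join the same complexes and mostly act as corepressors. The module is best known from the eye, ear, kidney and skeletal muscle, and human EYA4 mutations cause hearing loss with dilated cardiomyopathy.

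Promoter sequences of RefSeq (GRCm38.p6) covered 6 of the 8 members with 8 windows of 300 bases, each with 250 bases before and 50 bases from the transcription start on. Since Dnmt3a and Dnmt3b methylate cytosine in CpG, the CpG dinucleotides were counted. The windows held 37 CpG in Six2, 36 and 28 in Eya4, 25 in Eya3, 17 in Six5, 16 and 15 in Six4 and 13 in Dach1, against a median of 7 over 32851 windows. All 8 windows were thus above the median. Eya1 and Eya2 had no window, so nothing is shown of their promoters. Fewer CpG were present in 94.4% of all windows than in that of Six2, in 81.6% than in that of Eya3 and in 68.6% than in that of Six5. Methylation itself was not measured by these arrays. The bases before the gene start are shown for Eya3 and Six5, the 2 members that more than 1 probe placed above background, with each CpG in capitals (Eya3, chr4:132638796-132639024, plus strand, 229 bases; Six5, chr7:19094294-19094543, plus strand, 250 bases).
Eya3: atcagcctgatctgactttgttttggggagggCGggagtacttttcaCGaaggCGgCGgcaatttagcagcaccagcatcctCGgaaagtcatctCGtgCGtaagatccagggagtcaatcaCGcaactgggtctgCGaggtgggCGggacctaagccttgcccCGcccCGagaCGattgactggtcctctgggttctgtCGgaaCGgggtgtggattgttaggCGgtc
Six5: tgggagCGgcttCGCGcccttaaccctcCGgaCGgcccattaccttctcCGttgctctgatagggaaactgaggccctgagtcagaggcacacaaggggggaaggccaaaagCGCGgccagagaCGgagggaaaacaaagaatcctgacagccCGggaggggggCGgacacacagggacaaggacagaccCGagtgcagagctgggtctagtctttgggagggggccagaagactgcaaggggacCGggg

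The MEF3 element TCAGGTTTC, which Six-class proteins are known to bind in muscle promoters, was searched on both strands. It was present in 141 windows (0.429%). Among the members a window of Six4 held it, and among the muscle targets that of Myog, the gene of the myogenic factor myogenin, held it. Both sites are shown with 10 bases on either side and the element in capitals (Six4, chr12:73113326-73113354, minus strand, element read as its reverse complement; Myog, chr1:134289910-134289938, plus strand). The element lay 84 to 76 bases before the Myog start and 99 to 91 bases before 1 of the 2 Six4 starts, and thus after the other Six4 start.
Six4: tggcctggggGAAACCTGAtcggccagat
Myog: agaggggggcTCAGGTTTCtgtggcgttg

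The values were linear intensities, quantile normalized over the 20 arrays, and the level of background was read from probes of odorant, vomeronasal and taste receptor genes, which ventricle is not known to use. The mean intensity of 95% of these 1542 probes was at most 58.0. By this mark 7 of the 22 member probes exceeded background: 1 of 4 for Eya1, 3 of 3 for Eya3, 1 of 3 for Eya4 and 2 of 2 for Six5. The Eya1 probe passed only through the sham DKO hearts, and its mean over the other 16 arrays was 56.4. The probes of Eya2 (2), Six2 (1), Six4 (2) and Dach1 (5) stayed below it in their mean over all arrays. Probes differ in their response to the same amount of RNA, so levels are compared only within a probe. Fold differences this close to background are compressed.

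Among general checks, 13 of 13 measured cardiomyocyte markers exceeded background. The Dnmt3a probes lay at background (mean 41.7 to 48.3), the brighter Dnmt3b probe averaged 107, and none was called between genotypes, but probes outside the deleted exons check nothing and their positions were not used here. Sham CTL array 2 stood apart in skeletal muscle markers, and TAC DKO arrays 2 and 3 in atrial markers. The sham and the TAC arrays had been normalized apart (median intensity 58.6 on TAC and 47.5 on sham arrays, a shift of 0.30 in TAC over sham on the log2 scale), so set and surgery cannot be told apart.

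**Figure D1:**
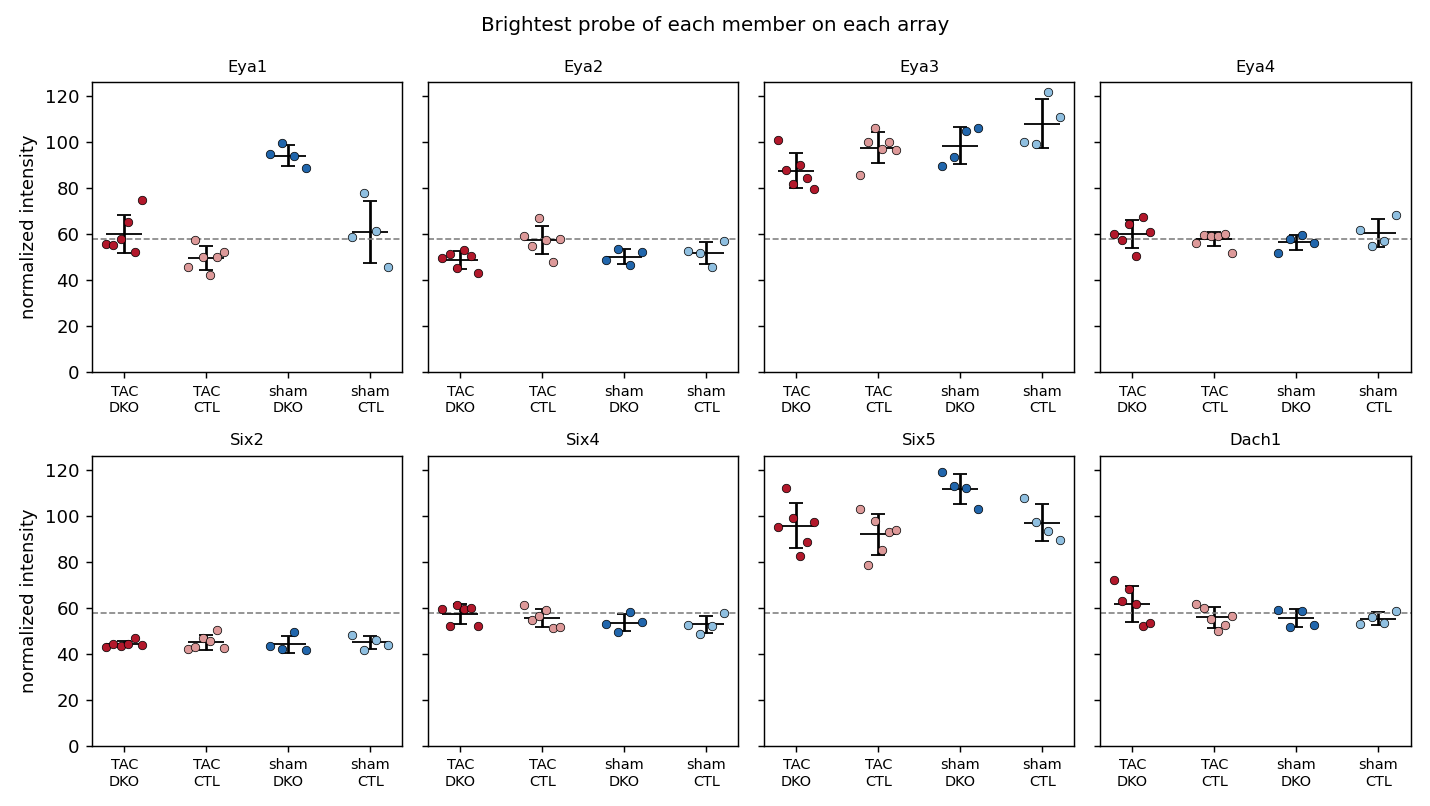
Normalized linear intensity (vertical axis) of the brightest probe of each of the 8 members on each of the 20 arrays, by group (TAC DKO, TAC CTL, sham DKO, sham CTL). Points are arrays, bars mean and SD, and the dashed line is the background level of 58.0. Eya3 and Six5 lie above the line on every array, Eya1 stands out in sham DKO hearts, and the other 5 members lie near or below the line.

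Eya1, a coactivator required in mice for ear and kidney development, was measured above background with probe ILMN_2430513. Its intensity was 94.8, 99.5, 93.8 and 88.6 in sham DKO hearts and 58.7, 78, 61.4 and 45.6 in sham CTL hearts. Every sham DKO array exceeded every other array of the series. After TAC the intensity was 55.6, 55.5, 57.9, 65.1, 52.2 and 74.8 in DKO hearts and 45.9, 57.3, 50.1, 42.1, 50 and 52.1 in CTL hearts. These groups overlapped, and the TAC CTL mean was below background.

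Ordered by mean, Eya1 stood at 94.2 ± 4.48 in sham DKO (SD, n = 4), 60.9 ± 13.3 in sham CTL (n = 4), 60.2 ± 8.37 in TAC DKO (n = 6) and 49.6 ± 5.2 in TAC CTL hearts (n = 6). The arrays of sham CTL overlapped with those of both TAC groups. The sham DKO minus sham CTL difference on the log2 scale, on which the gene was selected, was 0.65 (SE 0.13), and the TAC DKO minus sham DKO difference, which uses the same sham DKO arrays, was -0.66 (SE 0.11). Both are descriptions.

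The genotype comparison after TAC used none of the sham arrays in its difference. Eya1 was 0.28 higher in TAC DKO than in TAC CTL hearts on the log2 scale (SE 0.10, 95% interval 0.06 to 0.49), with an unadjusted p of 0.0131 and an adjusted p of 0.415 (limma), and was not called. A probe was called where its fold change exceeded 1.5 and its p, adjusted by Benjamini-Hochberg, was under 0.05. Over all alternatives the difference ranged from 0.21 to 0.32, with adjusted p between 0.209 and 0.771. In CTL hearts TAC minus sham was -0.28 (SE 0.11), but -0.01 with the values as deposited and -0.38 with array weights. It was -0.15 without sham CTL array 2 and -0.41 without sham CTL array 4. This comparison shares the sham CTL arrays with the choice of the gene, so it is a description with no test.

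**Figure D2:**
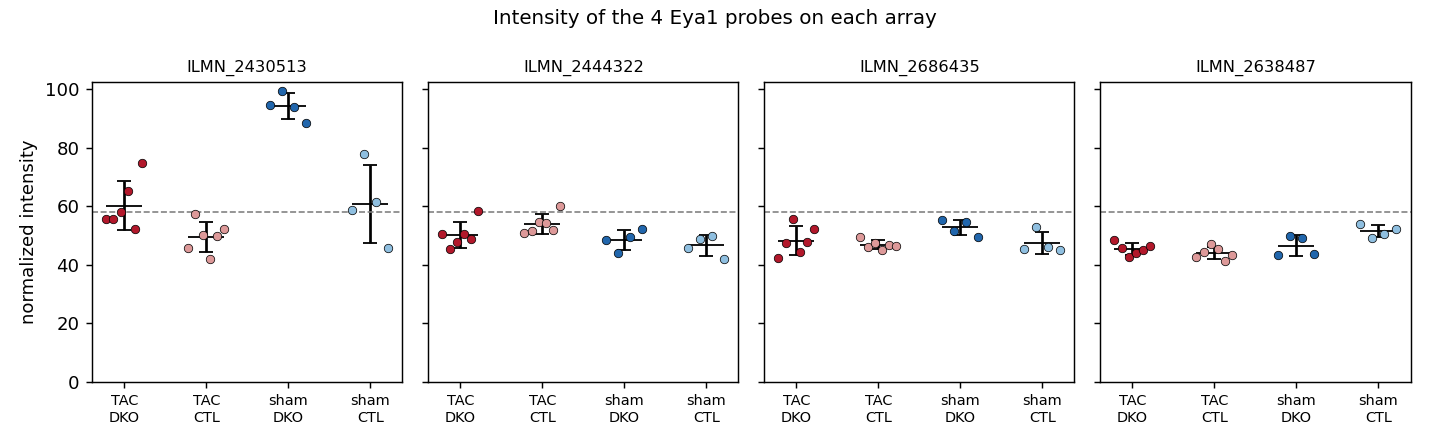
Normalized linear intensity of the 4 Eya1 probes on each array, by group; points are arrays, bars mean and SD, and the dashed line is the background level of 58.0. The sham DKO arrays stand apart (88.6 to 99.5) on ILMN_2430513 but not on the other probes.

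The other 3 Eya1 probes, annotated with the same transcript record as ILMN_2430513, lay between 41.4 and 60 on all arrays. In sham DKO hearts they ranged from 43.9 to 52.2 (ILMN_2444322), 43.3 to 49.9 (ILMN_2638487) and 49.6 to 55.2 (ILMN_2686435). In sham CTL hearts the ranges were 42 to 49.8, 49.3 to 53.9 and 45.1 to 53, and all overlapped with those of sham DKO. Across the 20 arrays the brightest probe correlated with them at r = -0.14, 0.13 and 0.65, a description over arrays that share their group. The Eya1 pattern thus rests on a single probe.

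Skeletal muscle, in which Eya1 and Six-class genes are active, was looked for with 12 markers, 11 of them measured and 9 above background. Their mean log2 deviation from each gene's mean was 0.00 to 0.21 on sham DKO arrays and -0.25, 2.15, -0.20 and 0.01 on sham CTL arrays 1 to 4, and their summed intensity was 4760 to 5160 in sham DKO and 4480 to 9900 in sham CTL hearts. Sham CTL array 2 also had the highest Eya1 value of its group (78). Apart from it, the sham DKO arrays lay slightly above 2 of the sham CTL arrays. Without array 2 the sham difference of Eya1 was 0.78. In TAC hearts the deviation was -0.19 to 0.04 in DKO and -0.34 to -0.08 in CTL, and the part of these markers in the Eya1 values was not tested.

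**Figure D3:**
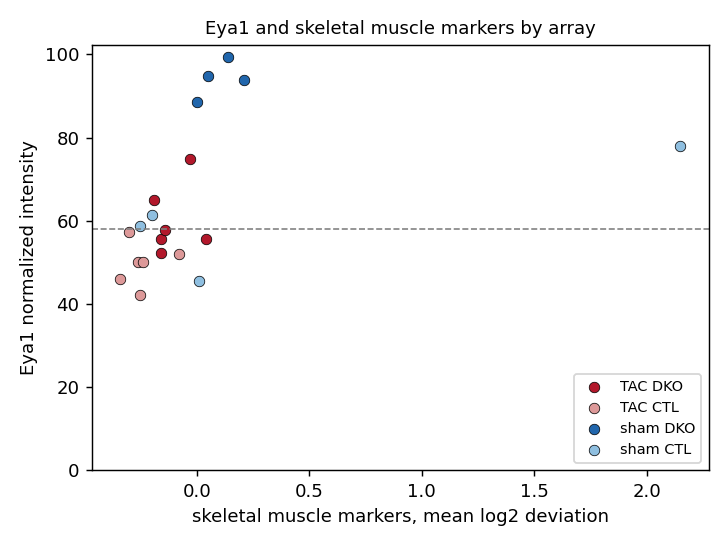
Normalized linear intensity of Eya1 probe ILMN_2430513 (vertical) against the mean log2 deviation of 11 skeletal muscle markers (horizontal) for the 20 arrays, with groups in colour and the background level of 58.0 dashed. Sham CTL array 2 lies far to the right at 2.15, while the 4 sham DKO arrays are highest in Eya1 at marker deviations of 0.00 to 0.21.

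Atrial markers, 11 of 12 measured and 8 above background, had mean deviations of 0.90 and 1.24 on TAC DKO arrays 2 and 3, of 0.01 to 0.16 on the other TAC DKO arrays and of -0.38 to 0.11 on TAC CTL arrays. Their summed intensity was 5300 to 12500 in TAC DKO and 4620 to 9690 in TAC CTL hearts. Eya1 was 55.5 and 57.9 on those 2 arrays, within the range of the group. Without them the TAC genotype difference of Eya1 was 0.31 (adjusted p = 0.771, limma). In sham hearts the atrial deviation was -0.17, 0.17, 0.21 and -0.03 in DKO and -0.40, -0.38, -0.45 and -0.43 in CTL, with no overlap, and the summed intensity was 5080 to 6800 in sham DKO and 4070 to 7410 in sham CTL hearts. The mean deviation of the atrial markers was thus higher in sham DKO hearts. Of the 11 markers, 1 was itself called higher in DKO in sham and 1 in TAC hearts, against 0.102% and 0.144% of all probes. The median log2 difference of the 11 markers in sham hearts was only 0.07, and their summed intensities overlapped, so a rise over the whole list was not shown. The part of these markers in the Eya1 values was not tested.

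The 5 genes whose probes ran most like Eya1 over the 20 arrays were Pkib (Pearson r = 0.88), an inhibitor of protein kinase A, Slc33a1 (0.85), an acetyl-CoA transporter, Lbh (0.85), a regulator of heart and limb development, Nap1l5 (0.85), an imprinted gene, and Creg1 (0.84). Mean intensities of Nap1l5 were 84.2 in TAC DKO, 49.1 in TAC CTL, 199 in sham DKO and 52.2 in sham CTL hearts, and those of Lbh were 7670, 6830, 8930 and 7240 in the same groups. The Slc33a1 probe averaged 50.4 over all arrays, below background, and only its sham DKO mean (63.1) exceeded that level. After the group means were removed, r was between 0.32 and 0.62 for these 5 genes, so the likeness was weaker within groups.

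Eya3, known in sheep for its part in the seasonal timing of the pituitary, was the member of its family with the most probes above background. Its brightest probe (ILMN_3089834) gave 101, 88, 82, 90, 84.5 and 79.6 in TAC DKO and 85.8, 100, 106, 96.9, 100 and 96.8 in TAC CTL hearts. The groups overlapped, but 5 of 6 DKO arrays lay below 5 of 6 CTL arrays. The log2 difference was -0.16 (SE 0.07, 95% interval -0.30 to -0.02, adjusted p = 0.488, limma). In sham hearts the probe gave 89.5, 93.7, 105 and 106 in DKO and 100, 99.3, 122 and 111 in CTL, again overlapping (difference -0.13, a description).

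The 3 Eya3 probes differed in their response to TAC. Probe ILMN_2761966 gave 52.4, 52.0, 63.8, 62.7, 75.3 and 65.5 in TAC CTL and 92.9, 79, 80 and 103 in sham CTL hearts, with no overlap. The log2 difference of -0.52 (SE 0.10, adjusted p = 0.000685, limma) passed the p threshold but stayed under the fold of 1.5. It was -0.40 with the values as deposited and -0.70 with median centring, where it was called. In DKO hearts the probe gave 49.3, 58, 57.7, 60.9, 70.2 and 57.9 after TAC and 65.7, 72.3, 65.6 and 80.8 after sham surgery (-0.27, SE 0.10, adjusted p = 0.0567, limma). The difference between these TAC effects was 0.25 (95% interval -0.06 to 0.56, adjusted p = 0.939, limma).

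Probe ILMN_1243290 pointed the other way. It averaged 78.8 ± 4.8 in TAC CTL (SD, n = 6) and 69.2 ± 9.68 in sham CTL hearts (n = 4), a log2 difference of 0.19 (SE 0.08, adjusted p = 0.10, limma) that ranged from 0.03 with median centring to 0.33 with deposited values. In DKO hearts the difference was 0.15 (SE 0.08, adjusted p = 0.183, limma). Over the 20 arrays it correlated with ILMN_2761966 at r = -0.52. The brightest probe was 0.14 and 0.17 lower on the log2 scale after TAC in CTL and DKO hearts (differences of -0.14 and -0.17, adjusted p = 0.211 and 0.108, limma). With median centring these differences were -0.46 and -0.45 (adjusted p = 5.44e-05 and 5.62e-05, limma). ILMN_2761966 and the brightest probe were thus lower after TAC, by an amount that moved with the scaling, while ILMN_1243290 was not.

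Eya4, the gene linked to cardiomyopathy in humans, lay close to the background level. Its brightest probe (ILMN_1245981) averaged 58.8 over all arrays, just above that level, and ranged from 50.3 to 67.4 in TAC DKO, 52 to 60 in TAC CTL, 52 to 59.5 in sham DKO and 55 to 68.4 in sham CTL hearts, all overlapping. The TAC DKO minus TAC CTL difference was 0.05 on the log2 scale (95% interval -0.09 to 0.19). The other 2 probes averaged 49.1 and 48.4. Eya2, a coactivator of the same family, was at 49.8, 51.2, 45.4, 53.2, 50.6 and 43 in TAC DKO and 59.1, 54.8, 67, 57.5, 48.1 and 58 in TAC CTL hearts with probe ILMN_1254886. Both means (48.9 and 57.4) were below background, so no fold is given, although the unadjusted p was 0.0047 (adjusted p = 0.303, limma). The other Eya2 probe (ILMN_1253486) averaged 48.8 in TAC DKO and 50 in TAC CTL hearts.

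Among the Six-class factors, Six5 was measured above background. Six5 lies beside Dmpk, the gene expanded in myotonic dystrophy. Its brightest probe (ILMN_1228115, no transcript record listed) averaged 95.8 ± 9.83 in TAC DKO, 92 ± 8.84 in TAC CTL (SD, n = 6 each), 112 ± 6.35 in sham DKO and 97.2 ± 8.16 in sham CTL hearts (n = 4 each). After TAC the genotypes overlapped (difference 0.06, 95% interval -0.10 to 0.21). In sham hearts DKO arrays gave 119, 113, 112 and 103 and CTL arrays 108, 97.5, 93.5 and 89.4, with 1 sham DKO value below the highest CTL value (log2 difference 0.20, a description).

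Both Six5 probes were lower after TAC in DKO hearts. Probe ILMN_2995454 gave 58.8, 48.5, 53.3, 48.2, 58.3 and 66.2 in TAC DKO and 70.4, 75, 86.8 and 89.8 in sham DKO hearts. The groups did not overlap, and the difference was -0.54 on the log2 scale (SE 0.10, adjusted p = 0.000193, limma), under the fold of 1.5. It was -0.37 with deposited values and -0.67 with median centring, and it passed the fold threshold without sham DKO array 1 (-0.60) or TAC DKO array 6 (-0.59). With the brightest probe the difference was -0.23 (SE 0.08, adjusted p = 0.0397, limma). In CTL hearts the differences were -0.27 (SE 0.10, adjusted p = 0.051) and -0.08 (SE 0.08, adjusted p = 0.543, limma). The sizes moved with the scaling. With median centring the brightest probe gave -0.54 in DKO (adjusted p = 7.53e-06) and -0.37 in CTL hearts (adjusted p = 0.000885, limma), and in CTL hearts ILMN_2995454 ranged from -0.39 with median centring to -0.09 with deposited values. The TAC effect was not shown to differ between genotypes by the interaction term (-0.27, 95% interval -0.55 to 0.02, adjusted p = 0.939 for ILMN_2995454, limma), an interval that leaves room for unequal effects. Smooth muscle and pericyte markers, 12 of 12 measured and 11 above background, moved with TAC as well. Their mean deviation was -0.04 to 0.32 in TAC DKO and -0.43 to -0.20 in sham DKO hearts, and -0.02 to 0.29 in TAC CTL and -0.21 to -0.14 in sham CTL hearts. Their summed intensity was 15300 to 21500 in TAC DKO and 11000 to 12900 in sham DKO hearts, and 15600 to 21900 in TAC CTL and 13000 to 15300 in sham CTL hearts. Cardiomyocyte markers had mean deviations of -0.25 to 0.03 in TAC DKO and 0.13 to 0.15 in sham DKO hearts. In CTL hearts these were -0.27 to 0.10 after TAC and 0.09 to 0.23 after sham surgery. The median TAC difference of the 13 cardiomyocyte markers was -0.02 in DKO and 0.01 in CTL hearts on the log2 scale. The part of these cell types in the TAC differences of Six5 and Eya3 was not tested.

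The neighbouring Dmpk had means of 4440 and 71.9 over all arrays on its 2 probes. The brighter probe gave -0.02 in both TAC comparisons (adjusted p = 0.906 in CTL and 0.832 in DKO hearts, limma). The dimmer was 0.35 higher after TAC in CTL (adjusted p = 0.000518) and 0.24 higher in DKO hearts (adjusted p = 0.0107, limma), neither past the fold of 1.5. A lower level like that of the Six5 probes was thus not measured at Dmpk.

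Six2, which maintains kidney progenitors, ranged from 41.6 to 50.3 over the 20 arrays. Six4, a factor active in muscle development, ranged from 45 to 65.1 with ILMN_1219845 and from 48.6 to 61.1 with ILMN_2434136. Dach1, which acts in coronary artery growth in mice, was brightest on ILMN_3072197, with 72.3, 62.8, 68.1, 61.6, 52.2 and 53.4 in TAC DKO hearts and 49.8 to 61.9 in TAC CTL hearts. Its mean exceeded background in TAC DKO hearts alone among the groups, by a difference from TAC CTL of 0.14 on the log2 scale (SE 0.08, adjusted p = 0.627, limma) that was not called. The other 4 Dach1 probes ranged from 38.9 to 69.1. For Six2, Six4 and most Dach1 probes these values show only that they were not detectable above background, not that the genes were silent.

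**Figure D4:**
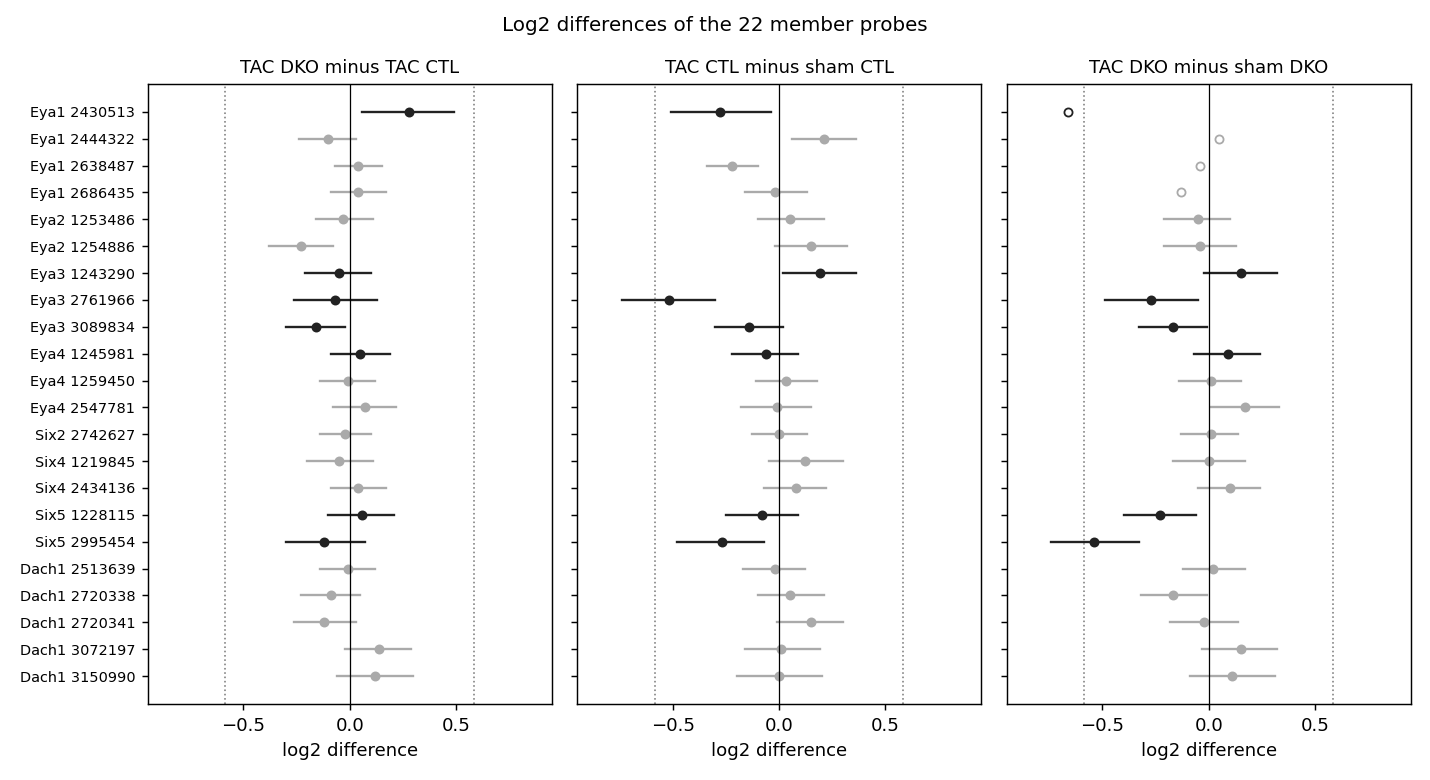
Log2 difference (horizontal, with 95% intervals from limma) of the 22 member probes in 3 comparisons, with gene and probe number on the vertical axis. Black marks probes above background and grey those below, open circles are Eya1 values without a test, and dotted lines mark the fold of 1.5. The Eya1 intervals for TAC CTL minus sham CTL share arrays with the choice of the gene and are descriptions. In the genotype comparison after TAC every difference lies within -0.23 to 0.28. Eya1 ILMN_2430513 lies past the line in TAC DKO minus sham DKO (-0.66, without a test). Among the other genes, ILMN_2761966 of Eya3 and ILMN_2995454 of Six5 come closest to the lines after TAC.

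Over all members, 0 of 22 probes were called between TAC DKO and TAC CTL hearts, against 0.144% of all probes, and 3 had an unadjusted p under 0.05 by limma (1 higher, 2 lower) against 8.99% of all probes. The remaining comparisons used sham arrays on which Eya1 was chosen, so the counts are given over the 18 probes of the other genes. Between TAC CTL and sham CTL hearts 0 of 18 were called against 5.17%, with 3 under the unadjusted threshold against 32.7%. Between TAC DKO and sham DKO hearts 0 of 18 were called against 6.74%, with 6 under the unadjusted threshold against 37.9%. For the interaction 0 of 18 were called against 0.00221%, with 0 under the unadjusted threshold against 4.71%. In these 4 comparisons the counts stood near or below the shares of all probes, or above them by very few probes. In sham hearts 0.102% of all probes were called and 5.55% were under the unadjusted threshold, and nothing is read from the members' values there.

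The median log2 difference of the 22 probes was -0.02 for the genotype after TAC, 0.01 in sham hearts, 0.00 and -0.01 for TAC in CTL and DKO hearts, and -0.03 for the interaction. Over all probes the medians were 0.00, 0.00, 0.01, 0.02 and 0.00. The medians of the members thus lay close to those of all probes. The 5 comparisons share arrays and are not independent.

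Relatives of the members outside the 8 genes were described with 5 measured genes. Six3, Six6 and Dach2 lay at background (mean 42 to 51.8 over all their probes), and 0 of the 5 genes were called by their brightest probe in any comparison. Of all probes, between 0.00221% and 6.74% were called in these comparisons. Skil, a Ski relative that restrains TGF-beta signalling, differed between probes. Probe ILMN_2443990 fell to 52.3, 52.6, 65.6, 66, 77.1 and 101 in TAC DKO hearts, against 136, 116, 132 and 137 in sham DKO hearts (log2 difference -0.95, SE 0.13, adjusted p = 7.79e-06, limma), and it was also lower in TAC CTL than in sham CTL hearts (-0.67, SE 0.13, adjusted p = 0.000623). The brightest Skil probe (ILMN_3126697) gave differences of 0.11 in DKO (adjusted p = 0.471) and 0.35 in CTL hearts (adjusted p = 0.0139, limma).

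Of 15 Pax and Sall genes and other partners, 15 were measured and 5 exceeded background. No gene was called between genotypes in TAC or sham hearts, where 0.144% and 0.102% of all probes were called. An unadjusted p under 0.05 (limma) was found for 1 of the 15 in TAC and 2 in sham hearts, against 8.99% and 5.55% of all probes. Between TAC and sham hearts 1 gene was called lower in CTL, and 1 higher and 1 lower in DKO, against 5.17% and 6.74% of all probes. Sharpin, named here with the Eya partners and otherwise a subunit of the linear ubiquitin ligase, fell after TAC in both genotypes. It was at 174 to 203 in TAC DKO and 411 to 433 in sham DKO hearts (-1.18, SE 0.08, adjusted p = 4.2e-10), and at 174 to 202 in TAC CTL and 431 to 620 in sham CTL hearts (-1.34, SE 0.08, adjusted p = 1.6e-10, limma). A further Sharpin probe (ILMN_2571024) lay at background (mean 48.2). Sobp, a Six-binding protein, was higher in TAC DKO than in sham DKO hearts with its brightest probe (0.66, SE 0.13, adjusted p = 0.000408), whereas ILMN_1226328 of the same gene gave -0.50 (adjusted p = 0.00146, limma).

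Of 11 corepressors and coactivators of Dach and Six-class proteins, 8 were measured and all 8 exceeded background. Crebbp, a histone acetyltransferase, was the gene called, between TAC DKO and sham DKO hearts, where 6.74% of all probes were called. It was at 119 to 165 in TAC DKO and 91 to 101 in sham DKO hearts (0.65, SE 0.13, adjusted p = 0.000368, limma). A further probe of Crebbp (ILMN_2695020) gave 0.62 (adjusted p = 0.000212, limma). In CTL hearts the difference was 0.42 (SE 0.13, adjusted p = 0.0167) and did not pass the fold threshold. Between genotypes 0 of 8 were called in TAC or in sham hearts, against 0.144% and 0.102% of all probes. An unadjusted p under 0.05 by limma was found for 2 in TAC and 3 in sham hearts, against 8.99% and 5.55% of all probes. These shares also cover probes at background, whereas all 8 genes exceeded it.

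**Figure D5:**
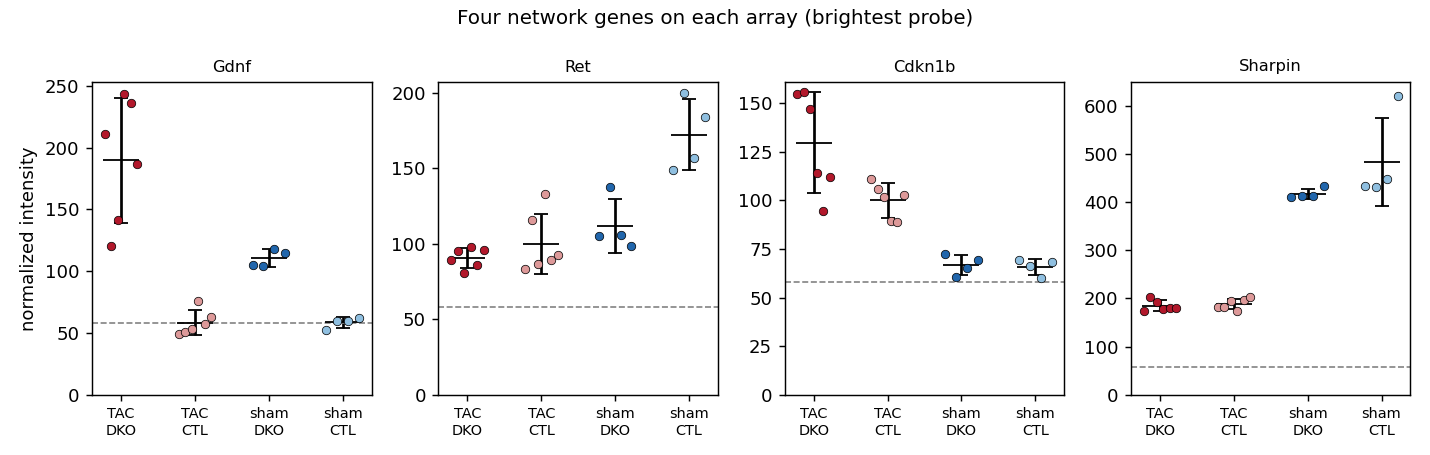
Normalized linear intensity of 4 network genes on each array, each with its brightest probe and its own vertical scale from 0; points are arrays, bars mean and SD, and the dashed line is the background level of 58.0. Gdnf is highest in TAC DKO (120 to 243), Ret in sham CTL (149 to 200), Cdkn1b in TAC hearts of both genotypes, and Sharpin in sham hearts of both genotypes.

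Known targets of Eya and Six-class proteins in muscle, kidney, growth control and DNA damage numbered 22, of which 21 were measured and 14 exceeded background. By its brightest probe, 1 of the 21 was called between genotypes in TAC and 1 in sham hearts, against 0.144% and 0.102% of all probes. For TAC, 1 was called higher and 1 lower in CTL hearts, and 2 higher in DKO hearts, against 5.17% and 6.74%. From such small counts nothing is read about the list. Gdnf, the growth factor that Eya1 and Six-class genes switch on in kidney development, was at 211, 120, 141, 243, 236 and 187 in TAC DKO and 49.1, 50.8, 53.6, 75.8, 57.1 and 63.3 in TAC CTL hearts. The difference was 1.67 on the log2 scale (SE 0.14, adjusted p = 1.78e-07, limma) with no overlap. In sham hearts it was at 105, 104, 118 and 115 in DKO and 52.6, 59.8, 59.6 and 62.1 in CTL (0.92, SE 0.17, adjusted p = 0.0189, limma). A further Gdnf probe (ILMN_2701617) lay at background, with group means of 46.3 to 46.8. The Gdnf pattern thus rests on a single probe. Gdnf and Ret, like Eya1, Pkib and Nap1l5, were among the genes that the study labelled in a heatmap of these same arrays, so their values are no independent evidence on the module. In TAC DKO hearts Gdnf was higher than in sham DKO hearts (0.74, SE 0.15, adjusted p = 0.00072, limma). The part of Eya1 in the Gdnf values was not tested.

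Ret is the receptor of Gdnf. Its brightest probe (ILMN_1236477) gave 105, 138, 106 and 98.5 in sham DKO and 149, 200, 157 and 184 in sham CTL hearts. These did not overlap (-0.63, SE 0.13, adjusted p = 0.0621, limma). The highest value of this probe, 200, was again on sham CTL array 2. In CTL hearts the probe was lower after TAC (-0.80, SE 0.12, adjusted p = 2.53e-05), and after TAC the genotypes differed by -0.12 (SE 0.11, adjusted p = 0.787, limma). Probe ILMN_3043469 (mean 71.9) gave 65.9 to 87.2 in sham DKO and 81.2 to 104 in sham CTL hearts. These ranges overlapped (-0.31, adjusted p = 0.856, limma). In CTL hearts it was lower after TAC (-0.46, adjusted p = 0.00719, limma) but was not called. Probe ILMN_2683393 lay at background (mean 46.4). The lack of overlap and the call after TAC in CTL hearts thus rest on the brightest probe. Cdkn1b, the cell cycle inhibitor p27 that Eya4 regulates in mouse heart, rose after TAC in both genotypes: 94.6 to 156 in TAC DKO against 60.6 to 72.4 in sham DKO (0.93, SE 0.11, adjusted p = 1.05e-06), and 89.1 to 111 in TAC CTL against 60.2 to 69.5 in sham CTL hearts (0.60, SE 0.11, adjusted p = 0.000364, limma). Between TAC DKO and TAC CTL hearts the difference of 0.36 (SE 0.10, adjusted p = 0.206, limma) was not called. The other Cdkn1b probes lay at background (mean 42.2 and 46.7). Ccnd1 was called higher in TAC DKO than in sham DKO hearts with its dimmest probe alone (ILMN_2669793, 0.77, SE 0.15, adjusted p = 0.000373), while its other probes gave 0.56 and 0.48 (adjusted p = 0.0029 and 0.00589, limma). Myog, whose promoter holds the MEF3 element shown above, averaged 60.8 and 58.8 on its probes, just above the background level. In this list 4 genes, Myh4, Tnnt3, Tnni2 and Pvalb, are also among the skeletal muscle markers that stood high on sham CTL array 2.

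Patterns like that of the other bright members were led by Olfr1162 (r = 0.81) and Abhd6 (0.78) for Eya3, Rab42 (0.75) and Ccl25 (0.73) for Eya4, and Zer1 (0.85) and Gprasp2 (0.79) for Six5, over 20 arrays that share 4 groups. Olfr1162, an odorant receptor gene with a mean intensity of 43.1, is itself one of the probes used to set the background.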

How the data were processed

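The authors labelled total RNA, scanned the arrays and processed them in GenomeStudio 2010.3, and deposited linear intensity values for 45281 probes. The deposited sorted values were equal to within 0.2% at 99.9% of ranks or more among TAC arrays and 97.5% among sham arrays, and at 0.404% between the sets. Background correction is not given in the sources used here. Groups came from the sample labels, and array number limits the precision.

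The values were log2 transformed, quantile normalized over 20 arrays and fitted with limma 3.58.1 in R 4.3.3 with 1 mean per group (16 residual, 6.64 prior degrees of freedom). P-values were two-sided and adjusted over all 45281 probes within each comparison. Probe genes came from the platform annotation (34885 probes with 1 gene, 18 with several, 10378 with none), updated through gene identifiers for 34807 probes. The probe with the highest mean led a gene. Named were every member probe, network genes called in any comparison, Six3, Six6, Dach2, the genes most like each member (5 for Eya1, 2 for the others), Dnmt3a, Dnmt3b and, added later, Dmpk and Myog. Members, lists and tests were chosen with earlier results of these data known. In simulated data for the TAC genotype comparison on 45281 probes, calls recovered 2% of 50 probes changed 1.25-fold, 94% at 1.6-fold and 100% at 2-fold, with 0 false calls. The changes were added in full to intensities of probes drawn at any level. Near background, where most member probes lie, a change in RNA is compressed, so these shares do not hold for it.

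Alternatives were the deposited values, median centring, an added offset of 16, a filter on low values, fits of 2 groups, an intensity trend with robust prior, array weights, a replicate block, leaving out each array, other probe rules and, chosen after seeing the data, leaving out TAC DKO arrays 2 and 3.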

Additional observations from a re-analysis of the deposited data

Results flagged for a closer look

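Of 88 sets of arrays (22 probes in 4 groups), 3 held an array far from the others of its group, where chance gives about 1 in 20. All 3 belonged to probes below background. Eya1 probe ILMN_2686435 was 53 on sham CTL array 2, the array high in skeletal muscle markers, with the other sham CTL arrays at 45.1 to 46.2. Six2 probe ILMN_2742627 was 46.8 on TAC DKO array 5, with the others at 43.2 to 44.3. Six4 probe ILMN_1219845 was 62.9 on sham DKO array 4, with the others at 49.5 to 50.1.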

How the results depend on the processing

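The count of called member probes after TAC stayed at 0, and that for the interaction at 0, under every alternative run for each. In sham hearts the count of 1 (Eya1, used in the choice) became 0 with an offset of 16, with 2 groups only and with array weights, and ranged from 0 to 1 on leaving out single arrays: it was 0 without any of sham DKO arrays 1 to 4 or sham CTL arrays 1, 3 and 4, while the difference ranged from 0.52 to 0.78. For TAC in CTL hearts the count of 0 became 1 (Eya3 ILMN_2761966) with median centring and with the replicate block (-0.60). For TAC in DKO hearts the count of 1 (again Eya1) became 0 with the values as deposited and with an offset of 16, became 2 with median centring and with the replicate block (Six5 ILMN_2995454 added, -0.59), and ranged from 1 to 2 on leaving out single arrays. Averaging both probes gave -0.38 for Six5 there.

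Leaving out TAC DKO arrays 2 and 3, chosen after seeing the data, turned the genotype difference after TAC of Eya3 ILMN_1243290 to 0.01 and of Six5 ILMN_1228115 to -0.01, neither called in any fit. With median centring Eya1 in DKO hearts was -0.85. Nothing in the labels says that equal replicate numbers pair the mice. Of 10 pairs, 5 correlated best with their own number, and 4 of 6 TAC and 2 of 4 sham pairs exceeded 0.1. Cardiomyocyte marker deviations rose with array number in both TAC groups, from -0.27 to 0.10 in CTL and from -0.25 to 0.03 in DKO hearts. In sham hearts there was no steady rise. Whether arrays of equal number share a further factor was not tested. Deviations of same-numbered arrays correlated between -0.186 and 0.38 after TAC and between 0.0138 and 0.218 in sham hearts. Most member probes lie at background, which limits what the arrays can show of them.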
